A study of Mus musculus with 2 samples.

Results

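Osteoclasts are the multinucleated cells that dissolve bone, and 10 genes of their fusion, acid secretion, bone-degrading enzymes and RANK signalling were followed in the fetal mouse mandible with and without skeletal muscle. The genes were chosen by name, with earlier results of these data known, as Acp5, Ctsk, Mmp9, Atp6v0d2, Car2, Dcstamp, Ocstamp, Nfatc1, Tnfrsf11a and Tnfsf11. Each was read from the probe sets that the array annotation assigns to it alone. All 10 were found, with 1 probe set each, among 19938 genes and 35557 probe sets. The wild-type sample was BALB/c mandible at E18.5 (embryonic day). The other was mandible of the same age and background that was Myf5-/-:MyoD-/-, null for both transcription factors that commit cells to skeletal muscle. Each genotype has 1 array, hybridised with biotin-labelled cRNA made from 6 µg of total RNA; the sources used here do not say how many embryos went into a sample or whether they were littermates. The labels name no tissue-restricted promoter or Cre for either allele. No test between genotypes is possible with 1 array a group, every difference compares these 2 arrays only, and the number of arrays limits the precision.

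An osteoclast forms when precursors of the macrophage lineage receive RANKL, the product of Tnfsf11, through the receptor RANK, the product of Tnfrsf11a. The signal induces the transcription factor Nfatc1, which switches on genes for cell fusion and for resorption. The mature cell seals off a patch of bone, acidifies it with a proton pump supplied by carbonic anhydrase, and digests the exposed matrix with secreted proteases. In the growing jaw, osteoclasts remodel the new bone and open space around the tooth germs.

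Promoter windows were at hand in RefSeq (GRCm38.p6) for 4 of the 10 genes, each covering 250 bases before to 50 bases after an annotated gene start. The ligand, its receptor and the bone protease Ctsk are shown because they stand at the start and the end of the pathway and differed by unequal amounts below. Capitals mark matches on either strand to 4 short motifs: GGAAA (the NFAT core), TGANTCA (AP-1), CANNTG (the general E-box) and GAGGAA (the PU.1 core). The sequences run 5′ to 3′ on the gene's strand.
Tnfsf11, chr14:78307994-78308293, minus strand: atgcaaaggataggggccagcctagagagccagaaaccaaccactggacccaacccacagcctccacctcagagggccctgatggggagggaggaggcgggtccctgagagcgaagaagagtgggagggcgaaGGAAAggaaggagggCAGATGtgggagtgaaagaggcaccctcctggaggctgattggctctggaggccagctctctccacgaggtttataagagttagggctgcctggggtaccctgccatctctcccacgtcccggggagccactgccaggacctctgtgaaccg
Tnfrsf11a, chr1:105780473-105780772, plus strand: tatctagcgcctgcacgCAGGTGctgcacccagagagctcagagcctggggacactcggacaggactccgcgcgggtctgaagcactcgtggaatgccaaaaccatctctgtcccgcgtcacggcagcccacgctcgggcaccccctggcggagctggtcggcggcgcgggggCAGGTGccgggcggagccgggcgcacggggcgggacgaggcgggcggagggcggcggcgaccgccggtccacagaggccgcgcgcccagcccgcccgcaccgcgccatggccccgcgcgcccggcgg
Ctsk, chr3:95498960-95499259, plus strand: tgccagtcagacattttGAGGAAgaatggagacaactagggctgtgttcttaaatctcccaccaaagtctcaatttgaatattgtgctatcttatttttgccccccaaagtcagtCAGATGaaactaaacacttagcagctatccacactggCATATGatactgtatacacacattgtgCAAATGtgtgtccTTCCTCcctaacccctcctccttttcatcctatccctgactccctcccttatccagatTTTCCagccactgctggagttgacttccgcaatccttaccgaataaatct
The Ctsk window held 3 E-box matches, 2 PU.1 core matches and 1 NFAT core match. The Tnfrsf11a window held 2 E-box matches and none of the other motifs. The Tnfsf11 window held 1 E-box match and 1 NFAT core match. Acp5 has 3 annotated starts on chromosome 9, whose windows held 1, 1 and 2 NFAT core matches and 2, 1 and 2 E-box matches. No matches overlapped, and no AP-1 match lay in any of the 6 windows. These letters are common: of 32851 promoter windows of the same length, 61.3% held the NFAT core, 72.3% an E-box, 28.3% the PU.1 core and 7.81% the AP-1 motif. A match is a string of letters and not a measured binding site.

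All 10 osteoclast genes gave a higher signal on the double-knockout array. The median log2 difference in deposited signal (double knockout minus wild type, as throughout) was 0.73, or 1.66-fold, against a median of 0.098 over the 10393 genes measured. A gene counts as measured when it lies above the floor on at least 1 array, the floor being the median of the annotated probe sets (6.18 for the wild type, 6.19 for the double knockout), and all 10 lay above it on both. Of all measured genes, 67.0% were higher in the double knockout by any amount. At least 1.5-fold higher were 6 of the 10, against 3.07% of measured genes, and at least 2-fold higher were 3 of the 10, against 0.510%. None was lower, whereas 5.11% of measured genes were lower by 1.5-fold or more and 2.73% by 2-fold or more. None reached 3-fold, which 0.173% of measured genes did. Because the 10 were chosen with earlier results of these data known, these shares are descriptions only. In bulk tissue, more cells of a type and more RNA per cell cannot be told apart. Nor can either be told apart from a larger share of an equal RNA amount where muscle RNA is lost. The log2 of the summed linear signals of 10 skeletal muscle markers was 14.99 (wild type) and 8.76 (double knockout).

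**Figure D1:**
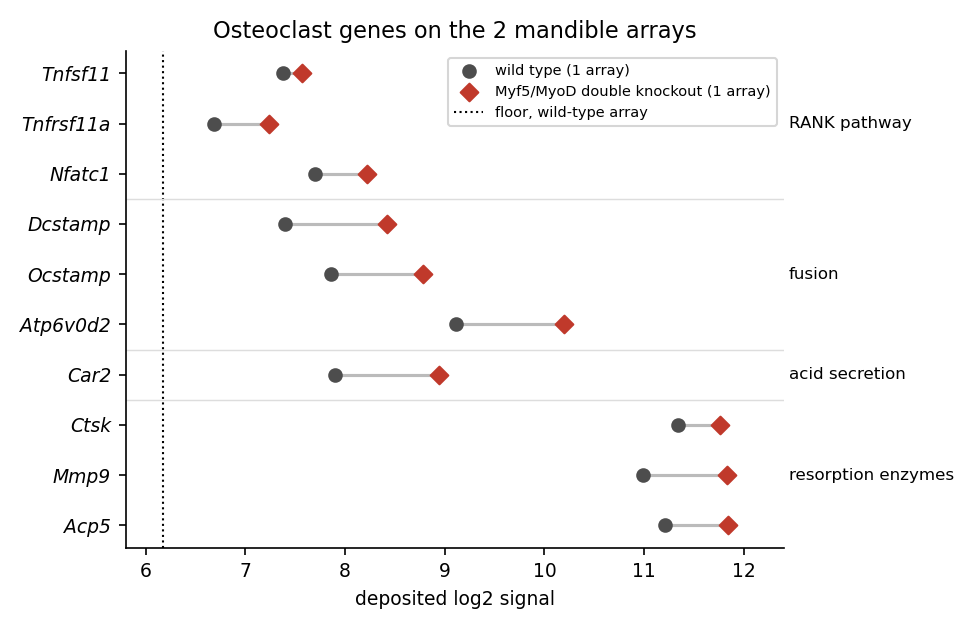
Deposited log2 signal (x axis) of the 10 osteoclast genes on the wild-type array (circles) and the double-knockout array (diamonds), grouped by role, with the wild-type floor as a dotted line. Every diamond lies to the right of its circle, by 0.19 (Tnfsf11) to 1.08 (Atp6v0d2); signals of different genes come from different probes and are not comparable with each other.

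The RANK pathway genes differed by 0.19 to 0.55. Tnfsf11, the ligand, gave 7.38 (wild type) and 7.57 (double knockout), a difference of 0.19 or 1.14-fold, and ranked 3375 among the 10393 measured genes ordered from the highest difference. The receptor gene Tnfrsf11a gave 6.69 and 7.24, a difference of 0.55 or 1.46-fold, ranked 403. Nfatc1, the transcription factor downstream, gave 7.70 and 8.22, a difference of 0.52 or 1.43-fold, ranked 459. The receptor and the factor thus sat far above the middle of all genes, whereas the ligand lay close to it. Tnfrsf11a and Tnfsf11 were dim, and with a floor at the 75th percentile both lay under it on both arrays.

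How far apart 2 such differences must lie can be judged only from genes with several probe sets. For 532 genes with 2 or more probe sets above both floors, the SD of the gap between the top 2 differences was 0.23, and this spread leaves out differences between animals and hybridisations. Where the dimmer of the 2 probe sets had a signal below 8, the SD was 0.21 (255 genes). It was 0.28 from 8 to 10 (202 genes) and 0.077 at 10 or above (75 genes). Tnfsf11 is the 1 gene of the 10 whose difference was smaller than 0.23, and the receptor exceeded the ligand by 0.36. The secreted decoy receptor Tnfrsf11b (osteoprotegerin), which captures the ligand, gave 6.67 and 6.83, a difference of 0.17. Ligand and decoy receptor therefore differed between the arrays by almost the same amount, 0.02 apart.

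The fusion genes were among the highest. Dcstamp, a membrane protein that precursors need to fuse, gave 7.40 (wild type) and 8.42 (double knockout), a difference of 1.02 or 2.03-fold, ranked 51. Its partner in fusion Ocstamp gave 7.86 and 8.78, a difference of 0.93 or 1.90-fold, ranked 66. These 2 genes lay 0.098 apart, less than the spread between probe sets. Atp6v0d2, a proton pump subunit that is also needed for fusion, gave 9.11 and 10.19, a difference of 1.08 or 2.12-fold, ranked 39, the highest of the 10.

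For acid secretion, Car2 stood beside Atp6v0d2. Carbonic anhydrase 2 makes the protons that the pump exports, and its gene gave 7.90 (wild type) and 8.95 (double knockout), a difference of 1.04 or 2.06-fold, ranked 47. Car2 is also made by red cells and by several epithelia. The red cell markers measured, Alas2, Tfrc and Slc4a1, were all lower in the double knockout, by 0.15, 0.33 and at least 0.58, while 2 others stayed under the floor and 4 are not analysed here. The salivary gland markers moved with Car2: all 9 were at least 2-fold higher, with a summed signal (log2 of the sum of linear signals) of 10.97 on the wild-type and 14.12 on the double-knockout array. The part of red cells and of salivary gland in the Car2 difference was not tested.

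The enzymes of bone resorption lay far above the floor on both arrays, and their differences were unequal. Mmp9, a secreted gelatinase, gave 10.99 (wild type) and 11.83 (double knockout), a difference of 0.84 or 1.79-fold, ranked 97. Acp5, the tartrate-resistant acid phosphatase used to stain osteoclasts, gave 11.21 and 11.84, a difference of 0.63 or 1.54-fold, ranked 252. Ctsk, the cathepsin that cleaves bone collagen at low pH, gave 11.34 and 11.76, a difference of 0.43 or 1.34-fold, ranked 837. Acp5 and Ctsk, 0.20 apart, were thus closer to each other than either was to the fusion genes. Neutrophils also make Mmp9. Of 10 neutrophil markers 7 were below the floor on both arrays, among them the defining S100a8 (4.73 and 4.22). The 3 measured, Ltf, Lcn2 and Ngp, were lower by 0.03, 0.27 and at least 0.15. The part of neutrophils in the Mmp9 difference was not tested.

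**Figure D2:**
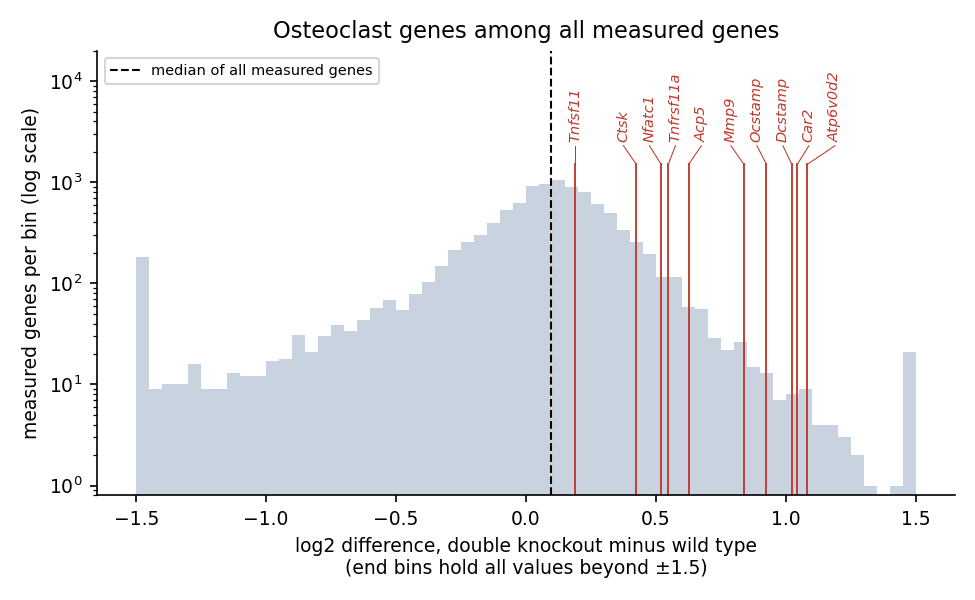
Number of measured genes (y axis, log scale) by log2 difference (x axis, bins of equal width, the end bins holding all values beyond ±1.5), with the 10 osteoclast genes as red lines and the median of all measured genes as a dashed line. Tnfsf11 (0.19) lies near the median of 0.098 and the other 9 genes lie in the upper tail, from Ctsk (0.43) to Atp6v0d2 (1.08).

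The upper tail of all differences is thin where most of the 10 genes fall. The other 9 genes were all above the 90th percentile of the measured genes, and their 3 highest had only 39 to 51 measured genes at or above them. With the median difference of all measured genes set to 0, each of the 10 was still positive, from 0.09 (Tnfsf11) to 0.98 (Atp6v0d2), but 0 reached 2-fold higher, where 38 of all measured genes did. After quantile normalisation the 10 ran from 0.16 to 1.05, and 2 reached 2-fold higher, where 51 of all measured genes did.

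Other genes of RANK signalling and osteoclast transcription differed by -0.29 to 0.92. Of 29 listed, 19 were measured, 8 stayed under the floor and 2 are not analysed here. Higher were 18 of the 19 (15 once the median of all measured genes is set to 0, 17 after quantile normalisation), against 67.0% of all measured genes. Past 1.5-fold were 3 of them, against 3.07%, and 0 past 2-fold, and the median was 0.21. Spi1, which encodes PU.1, the factor that sets up the macrophage and osteoclast lineage, gave 7.29 and 8.21, or 1.89-fold higher. Oscar, an immunoreceptor of osteoclasts that binds collagen, gave 8.20 and 8.94 (1.67-fold), and the AP-1 family factor Jdp2 gave 7.50 and 8.15 (1.57-fold). Csf1r, the receptor that keeps precursors alive, gave 8.90 and 9.48 (1.49-fold), and its ligand Csf1 gave 7.91 and 8.38 (1.38-fold). The calcineurin subunit Ppp3ca, which acts on Nfatc1 and is made by most cells, differed by 0.10.

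In the list of fusion, attachment and cytoskeleton genes beyond the 10, 14 of 16 were measured. Higher under all 3 scalings were 11 of these, against 67.0% of all measured genes as deposited. At least 1.5-fold higher were 2 (1 under either other scaling), against 3.07%, and the median of the list was 0.23. Dock5, an exchange factor of the osteoclast's sealing ring, gave 6.998 and 7.79, or 1.73-fold higher. The integrin subunit Itgb3, which with Itgav forms the receptor that holds the osteoclast to bone, gave 8.37 and 8.96 (1.51-fold), and Itgav gave 9.86 and 10.33 (1.39-fold). The kinase Src, needed for the ruffled border, gave 7.75 and 8.23 (1.40-fold). Pstpip2, a negative regulator of osteoclast fusion, went the other way: its wild-type signal was 7.16 and its double-knockout signal lay under the floor, at least 1.96-fold lower. The broadly made tetraspanin Cd81 differed by -0.04.

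**Figure D3:**
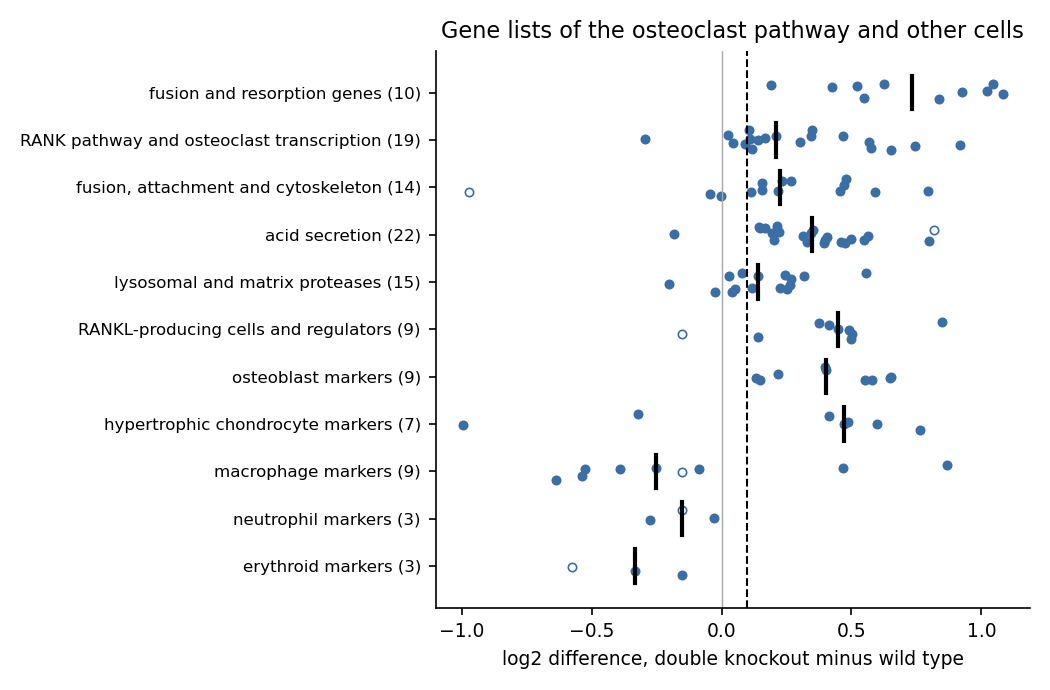
Log2 difference (x axis) of each measured gene, 1 point a gene, in the 10 fusion and resorption genes and in 10 other lists (measured genes in parentheses); thick bars are list medians, open points are bounds with 1 array at the floor, and the dashed line is the median of all measured genes. The osteoclast genes have a median of 0.73, the osteoblast markers 0.40 and the macrophage markers -0.25.

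In the proton pump, the osteoclast subunits differed more between the arrays than their widely made counterparts. Of 24 acid secretion genes besides Atp6v0d2 and Car2, 22 were measured and 21 were higher under all 3 scalings, against 67.0% of all measured genes as deposited. Past 1.5-fold were 2, against 3.07%, and 0 past 2-fold, and the median of the list was 0.35. Tcirg1, the a3 subunit that carries the pump to the ruffled border, gave 9.36 and 10.16, or 1.74-fold higher. The a1 and a2 subunits Atp6v0a1 and Atp6v0a2 differed by -0.18 and 0.14, so that Tcirg1 exceeded them by 0.98 and 0.66. Atp6v0d1, the d subunit found in most cells, gave 9.19 and 9.41, a difference of 0.22, which Atp6v0d2 exceeded by 0.86.

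The chloride exchanger Clcn7, which balances the pumped charge, gave 7.74 and 8.09 (1.27-fold higher), and its partner Ostm1 gave 7.81 and 8.36 (1.46-fold). The B2 subunit Atp6v1b2 gave 10.16 and 10.72 (1.48-fold). The B1 subunit Atp6v1b1, known from acid-secreting epithelia, gave 6.996 in the double knockout but was under the wild-type floor, at least 1.76-fold higher. The accessory subunit Atp6ap1 differed by 0.31. Atp6v0a1 and Atp6v0a2 were named after their values were seen.

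**Figure D4:**
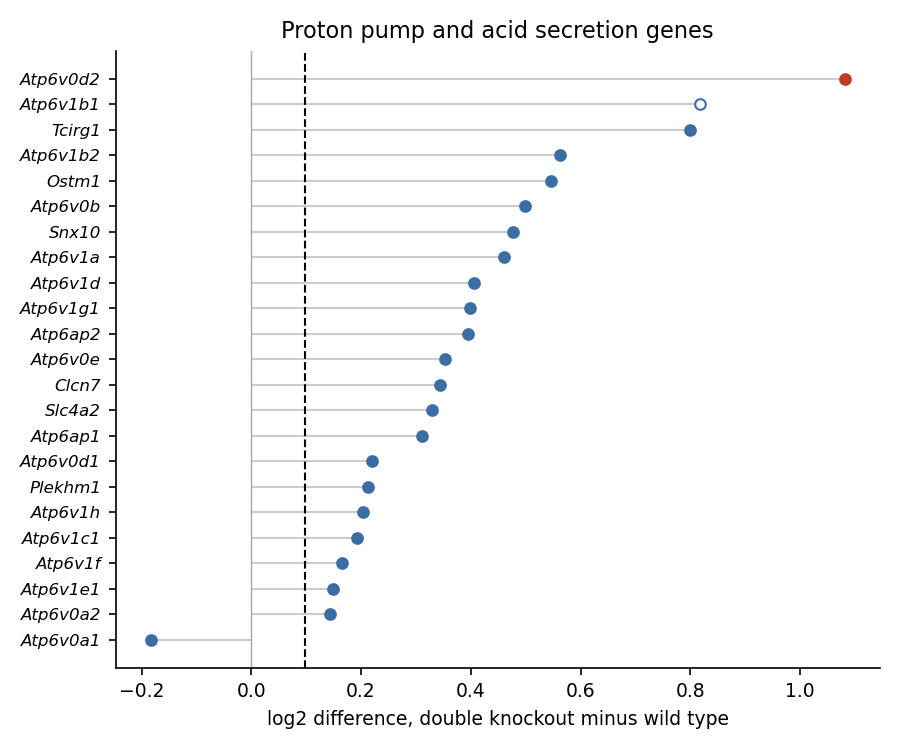
Log2 difference (x axis) of Atp6v0d2 (red) and of the 22 measured genes of the acid secretion list (blue), ordered by size; the open point is a bound with the wild type at the floor and the dashed line is the median of all measured genes. Atp6v0d2 (1.08) lies at the top, followed by Atp6v1b1 (at least 0.82, the open point) and Tcirg1 (0.80). Atp6v0d1 lies at 0.22, and Atp6v0a1 (-0.18) is the 1 gene below 0.

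The carbonic anhydrases did not move as a family. Of 11 others listed, 6 were measured, 4 higher and 2 lower, a share close to the 67.0% of all measured genes that were higher. Car6, the secreted salivary form, was at least 7.94-fold higher, and the membrane form Car12 gave 8.04 and 8.77, or 1.66-fold higher. Car3, abundant in muscle, gave 11.49 and 10.76, or 1.66-fold lower, and Car14 was at least 1.74-fold lower. Car2 exceeded Car3 by 1.77 and Car12 by 0.31.

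The list of general proteases of lysosomes and matrix, with their inhibitors, had a median near that of all genes. Of 15 measured, 13 were higher (9 once the median of all measured genes is set to 0, 10 after quantile normalisation), against 67.0% of all measured genes. Past 1.5-fold were 0, against 3.07%, and the median of the list was 0.14. Mmp13, the collagenase of hypertrophic cartilage and osteoblasts, had the highest difference of the list (10.999 and 11.55, 1.47-fold higher), which is above that of Ctsk. The membrane protease Mmp14 gave 10.41 and 10.68 (1.20-fold), the lysosomal Ctsa and Ctsh differed by 0.32 and 0.26, and the cathepsin inhibitor Cst3 by 0.05. Named after their values were seen, the gelatinase Mmp2 differed by 0.12, and the cathepsins Ctsb, Ctss and Ctsl by 0.25, -0.02 and -0.20. Mmp9 exceeded the related Mmp2 by 0.72 and Ctsk exceeded Ctsb by 0.17. The spread between probe sets was 0.077 at signals of 10 or above but 0.28 from 8 to 10. Ctsb (10.19 and 10.44) lay near the limit between these ranges.

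Macrophages share the osteoclast's origin, and most of the measured markers listed for them were lower. Of 15 macrophage markers, 9 were measured and 7 of these were lower, with a median of -0.25, and 6 were below the floor on both arrays. The complement genes C1qc (7.63 and 6.999) and C1qb (8.26 and 7.73) were 1.55-fold and 1.44-fold lower, and the mannose receptor Mrc1 (7.87 and 7.34) was 1.45-fold lower. The 2 higher markers were Cd68 (8.94 and 9.80, 1.82-fold), a lysosomal protein that osteoclasts also make, and Mertk (7.65 and 8.12), named after its value was seen. The summed signal of the 15, Cd68 included, was 11.03 and 11.14. Spi1 and Csf1r, which also serve the macrophage lineage and its precursors, were placed in the RANK list and were higher by 0.92 and 0.57. A floor at the 75th percentile left 4 macrophage markers, 2 higher and 2 lower, whose median was 0.14. The 7 lymphoid markers on the array were all below the floor on both arrays, among them Cd3e (4.97 and 5.12). T cells can also make the RANK ligand, and their part in the Tnfsf11 signal was not tested.

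Osteoblasts, osteocytes and chondrocytes make the ligand in the skeleton, and the osteoblast markers were higher alongside the osteoclast genes. Of 13 osteoblast markers listed, 9 were measured, 1 was below the floor and 3 (Runx2, Bglap and Spp1) are not analysed here. All 9 osteoblast markers measured were higher under all 3 scalings, against 67.0% of all measured genes as deposited, with a median of 0.40. At least 1.5-fold higher were 2 of them (0 with the median difference set to 0), against 3.07%. The osteocyte and late osteoblast gene Phex gave 9.54 and 10.19 (1.57-fold), Sost 6.58 and 7.23 (1.57-fold) and Dmp1 9.22 and 9.80 (1.49-fold), while the bone sialoprotein gene Ibsp and the collagen gene Col1a1, well above the floor on both arrays (12.24 and 12.46, 12.50 and 12.63), differed by 0.22 and 0.13. Of 7 cartilage markers measured, 5 were higher, a share close to the 67.0% of all measured genes, with a median of 0.47. Sox9 and Panx3 were 1.70-fold and 1.51-fold higher, and the 2 lower markers were Mef2c, which muscle also makes (1.995-fold), and the cartilage proteoglycan Acan (1.25-fold). The list mixes stages: Sox9, Col2a1 and Acan mark chondrocytes before hypertrophy, and of the defining hypertrophic genes Col10a1 lay near the floor (6.28 and 6.76) and Ihh under it on both arrays. Acan, Col10a1 and Ihh were named after their values were seen. Their part in the osteoclast gene differences was not tested.

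Factors that act on ligand-producing cells were also mostly higher. Of 13 listed, 9 were measured and 8 were higher under all 3 scalings, against 67.0% of all measured genes as deposited, with a median of 0.45. The vitamin D receptor Vdr, through which vitamin D induces the ligand, gave 9.07 and 9.92, or 1.80-fold higher. Bmp2, Tgfb1 and Sema3a, a secreted inhibitor of osteoclast formation, were 1.42-fold, 1.41-fold and 1.41-fold higher. The cytokine genes Il6, Il1b, Tnf and Il11 were below the floor on both arrays.

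The samples differed in other ways beside these results. Myf5 gave 6.31 (wild type) and lay under the floor (double knockout), and Myod1 gave 7.14 and 6.49; the sources used here do not say where the probes lie relative to the mutations. The 10 skeletal muscle markers had a summed signal of 14.99 and 8.76. The Y-linked Eif2s3y gave 2.38 and 6.55, the Y-linked Uty 2.43 and 6.20, and Xist 10.87 and 10.22. The sex-linked signals of the 2 samples thus differed, and the sex of the embryos and their genotype cannot be told apart. Xist lay far above the floor on both arrays, so the double-knockout array held Xist together with Y-linked signal, the latter near the floor. Whether that sample pooled embryos of both sexes was not tested.

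**Figure D5:**
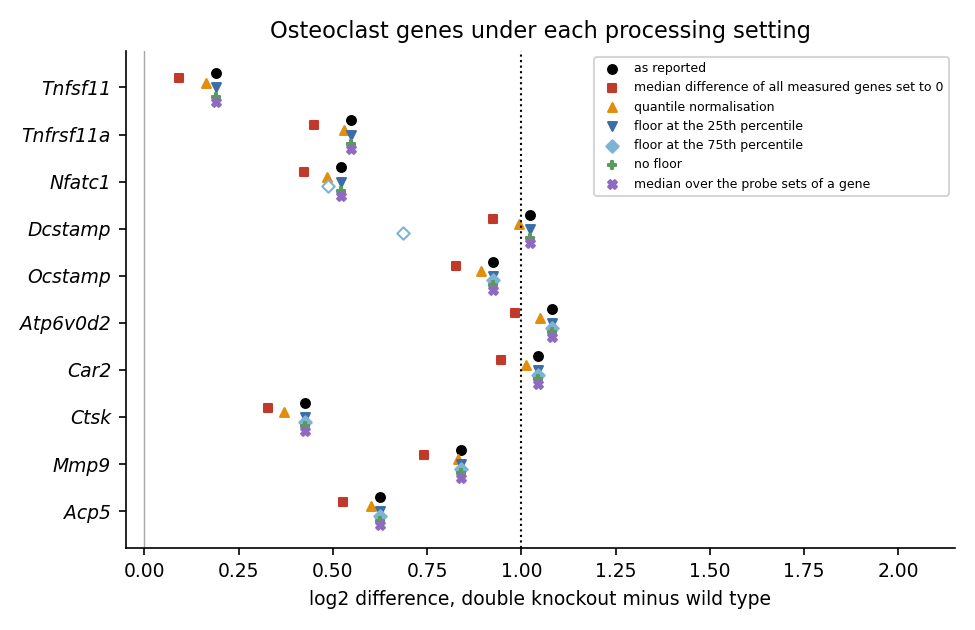
Log2 difference (x axis) of the 10 osteoclast genes under the reported setting and 6 alternatives; open diamonds are bounds with the wild type at the floor, missing diamonds are genes below the 75th percentile floor on both arrays, and the dotted line marks 2-fold. All plotted points lie above 0, and the 3 genes past 2-fold as reported fall below it with the median difference set to 0.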

How the data were processed

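RNA of 2 mandible samples was measured on 1-colour Affymetrix arrays. The deposited table holds 1 log2 value per probe set and array; MAS5 is named, without a version, in the submitters' processing notes, and the background correction, the normalization and the genome build are not given in the sources used here. Base 2 was read from the values (1.42 to 13.35). The arrays were compared as deposited, since their 2% trimmed means of linear values had a ratio of 1.02, within the 5% allowed; 1626 probe sets had identical values.

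Genes were named from GEO's platform annotation: 21789 probe sets name 1 gene, 1621 several and 12147 none, and only the first kind was used. All 10 osteoclast genes matched the RefSeq table (GRCm38.p6) by Entrez identifier and symbol. Of several probe sets of a gene, the brightest by mean linear value was taken. Values under each array's 50th percentile of annotated probe sets were raised to it, which gives bounds. No p-values are given. The members and 14 other gene lists were chosen with earlier results of these data known. Named are the 10 members, up to 4 genes per list with the largest differences and its 2 brightest, and 11 pathway genes fixed by name. S100a8, Cd3e, Il6, Il1b, Tnf and Il11, all under the floor on both arrays, were named outside this rule. Values were computed with Python 3.11.15, pandas 2.3.3 and numpy 2.4.6. The scripts were tested on simulated data in which bright genes differed by more than any of the 10 genes did. That test checks the code and not the precision of the values given here.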

Additional observations from a re-analysis of the deposited data

How the results depend on the processing

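No paired analysis was possible because each genotype has 1 array, and for the same reason no replicate could be left out. A value was called moved when it shifted by more than 0.23, the spread between probe sets of a gene, and a count when it changed by over 1.5 times. Of the 10 osteoclast genes, 10 were higher under every alternative except the floor at the 75th percentile, under which 8 were measured and all 8 were higher. The number of them at least 2-fold higher was 0 with the median difference set to 0, 6 at 1.5-fold and 0 at 3-fold, against 3 as reported. Dcstamp, with the wild type at the floor, was at least 0.69 higher at the 75th percentile floor; the cause lies in that floor. Over all measured genes, 20 were higher and 134 lower with that floor, 319 and 531 at 1.5-fold, and 18 and 161 at 3-fold, and 431 were lower without a floor, against 53 and 284. Where a list had measured genes as reported and under an alternative, its median kept its sign, but for the macrophage markers at the 75th percentile floor (0.14). At that floor 0 neutrophil markers were measured, and the lymphoid list had 0 measured as reported. Having 1 array per genotype, 1 probe set per osteoclast gene and an unstated normalization limits all of these values.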

Other observations

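The genes next to the 10 osteoclast genes on the chromosome were looked at after the main values were seen. The 10 genes have 20 distinct protein-coding neighbours in the RefSeq table of GRCm38.p6, 1 on each side. Of these, 12 were measured and 8 were below the floor on both arrays. Among the 12, 9 were higher in the double knockout, 0 at least 1.5-fold, against 67.0% and 3.07% of all measured genes. The median difference of the 12 was 0.099, close to the 0.098 of all measured genes. Both neighbours of Dcstamp (Rims2 and Dpys) and both neighbours of Atp6v0d2 (Slc7a13 and Ttpa) were below the floor on both arrays. Ctsk lies next to another cathepsin gene, Ctss, which differed by -0.02 where Ctsk differed by 0.43. Car2 lies next to Car3, the muscle form, which was 1.66-fold lower (wild type 11.49, double knockout 10.76) where Car2 was 2.06-fold higher. The neighbour with the highest difference was Zcchc2, beside Tnfrsf11a, at 0.43.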
